A study of Mus musculus with 491 samples.

Results

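Otic epithelial cells of the mouse embryo were compared by their level of Top2a, the DNA topoisomerase that untangles sister chromatids and whose transcript accumulates from S phase to mitosis. The 491 cells of the series came from otic vesicle and periotic tissue at E10.5 and carried Pax2-Cre/+ together with the Ai14-tdTomato/+ reporter. Each was sorted for tdTomato into its own well of 6 plates, 3 in each of 2 replicates, and its full-length cDNA was sequenced. Cre under Pax2 control leaves the reporter on in every descendant of a cell in which it was active, so the sort gathers the whole lineage and not the ear alone, and every cell compared here shares this genotype and this sort. Cells were chosen by their measured levels of 5 genes. They were taken as otic epithelial where Epcam was at least 5, Sox10 at least 1, Trp63 under 3 and Neurod1 under 5 on the scale log2(FPKM + 1), where FPKM counts sequenced fragments scaled to transcript length and sequencing output. The rule found 106 of 491 cells, 58 in replicate 1 and 48 in replicate 2. Top2a was at least 4 in 66 of them (Top2a-high), under 1 in 28 (Top2a-low) and between these limits in 12.

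The cell cycle runs from a first gap phase, G1, through DNA synthesis (S) to a second gap phase and mitosis (G2/M). D cyclins and their kinases act in G1, and inhibitors such as p21 (Cdkn1a), p27 (Cdkn1b) and p57 (Cdkn1c) hold them back. Genes of DNA synthesis are switched on around the start of S phase by E2F factors, and genes of mitosis later through the MuvB complex with B-MYB and FOXM1, which can sit on a promoter element called CHR. The otic vesicle is a proliferating epithelium from which the inner ear is built, and its neuroblasts leave it to form the ganglion of hearing and balance.

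The core of the CHR is TTTGAA, and of the 5 cell cycle genes with the largest rise, the 3 shown here hold it before the start. Of the other two, Ccnb1 has no match in its window and Spc25 has one 24 bases after the start. Each line gives the 120 bases before a RefSeq transcription start in GRCm38.p6, 5′ to 3′ on the gene's strand, with TTTGAA or its reverse complement TTCAAA in capitals. The last is Chtf18, the gene outside the cell cycle lists that passed the test, and its window has no match.
Cdk1 (chr10:69352913-69353032, minus strand): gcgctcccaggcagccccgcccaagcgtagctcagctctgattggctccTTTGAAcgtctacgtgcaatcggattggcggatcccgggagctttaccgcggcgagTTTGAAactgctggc
Ube2c (chr2:164769809-164769928, plus strand): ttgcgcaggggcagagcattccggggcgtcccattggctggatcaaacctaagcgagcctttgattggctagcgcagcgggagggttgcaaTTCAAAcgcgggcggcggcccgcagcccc
Prc1, the second of its windows (chr7:80294356-80294475, plus strand): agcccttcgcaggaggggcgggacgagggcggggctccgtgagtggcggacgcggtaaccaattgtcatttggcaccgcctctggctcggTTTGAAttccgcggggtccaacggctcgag
Chtf18 (chr17:25727416-25727535, minus strand): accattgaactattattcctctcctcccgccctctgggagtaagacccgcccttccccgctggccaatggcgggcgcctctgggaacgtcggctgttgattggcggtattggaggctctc
In the whole windows of 300 bases, from 250 before to 50 after the start, the letters stood on either strand in 25 of the 34 genes that rose and had a window (73.5%). They stood in 56.5% of 124 tested G2/M genes, 19.0% of 84 tested S phase genes, 13.7% of 7266 tested genes and 20.2% of all 27025 genes with a window. A match is a description of these letters and not a site of binding, and no test was made of these shares.

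The Top2a-high share was nearly the same in both replicates. It was 62.1% in replicate 1 (36 of 58 cells, exact 95% interval 48.4% to 74.5%) and 62.5% in replicate 2 (30 of 48, 47.4% to 76.0%), and the Top2a-low share was 25.9% (15 of 58) and 27.1% (13 of 48). Plates were less even. Of the 15 Top2a-low cells of replicate 1, 11 were on plate 3, where 23 otic cells were sorted, and plate 2 held none among its 17, so that 5 plates allowed a comparison within the plate. The limits cut the ends of the Top2a range unevenly: the lowest Top2a-high cell stood at 4.04 and the nearest cell below it at 3.99, whereas 27 of the 28 Top2a-low cells were listed at 0 and the nearest cell above them stood at 1.08. Among the rule's other genes, the nearest cells inside and outside were 5.46 and 4.39 for Epcam, 1.34 and 0.91 for Sox10, 1.27 and 4.16 for Trp63, and 4.56 and 5.00 for Neurod1. Intervals cover counting error only.

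The cells carried markers of the otic epithelium in every range of Top2a. Of 10 otic markers outside the rule, a median of 5 had an FPKM of at least 1, hereafter found, per Top2a-high cell and 6 per Top2a-low cell, and each cell had at least 2. Markers of neural tube progenitors were fewest in Top2a-low cells, but their sums did not follow the order of Top2a. Of that list's 10 genes, 3 or more were found in 11 of 36 and 3 of 30 Top2a-high cells of the 2 replicates. The same held for 2 of 7 and 2 of 5 intermediate cells and 1 of 15 and 0 of 13 Top2a-low cells. Median summed FPKM was 1.58 and 0.35 in Top2a-high, 40.2 and 22.0 in intermediate and 0 and 0 in Top2a-low cells. The sums ran from 0 to 225 and 0 to 180 in Top2a-high cells and from 0 to 221 and 0 to 60.5 in Top2a-low cells. Pax7 and Hes3 were found in no otic cell of any range. Of 6 markers of neural crest or glial precursors, a list that shares Fabp7 and Ednrb with the former, 3 or more were found in 5 of 36 and 5 of 30 Top2a-high and 0 of 15 and 1 of 13 Top2a-low cells, although their median summed FPKM was lower in the former (13.69 and 23.7) than in the latter (47.2 and 37.8). These sums ran from 0 to 221 and 0 to 302 in Top2a-high and from 0 to 182 and 0 to 347 in Top2a-low cells, and Foxd3 was found in none. Of 9 neuron markers, 3 or more were found in 7 and 3 Top2a-high and 2 and 2 Top2a-low cells, with sums of 0 to 623 and 0 to 1195 in the former and 0 to 252 and 0 to 454 in the latter. The part of these lists in the results was not tested. None of the 7 macrophage markers was found in any of these cells. No more than 1 of the 7 endothelial markers was found in any group of otic cells. Of 7 surface ectoderm markers, 2 and 4 were found in Top2a-high cells of replicates 1 and 2, against 1 and 2 in Top2a-low cells. Those of Top2a-low cells were Wnt6 in both replicates and Krt15 in replicate 2. Krt14 and Tfap2a were found only in Top2a-high cells of replicate 2. The list's summed FPKM had medians of 17.4 and 3.91 in Top2a-low cells (0 to 138 and 0 to 433) against 0 and 0 in Top2a-high cells (0 to 228 and 0 to 190). Krt5 was found in no otic cell, and Trp63 is limited by the rule. Of 10 mesenchyme markers, 3 or more were found in 4 cells, all Top2a-high, and the count of genes that rose was 43 without the cells holding 3 or more markers of mesenchyme, endothelium or macrophages.

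Measures of the libraries moved with Top2a. A median of 5174 genes was found per Top2a-high cell in replicate 1 and 5051 in replicate 2, against 4585 and 4341 per Top2a-low cell, although the summed FPKM was alike. Wells also shared rare transcripts. For 19 pairs of plate positions, some on different plates, rare genes of one well reappeared in its partner at a median of 3.33% to 14.9% of its level. Such a source well was held by 337 cells. The labels do not name a cause, and transfer between wells is used below only as a name for this sharing. Among otic cells, the Top2a-low share was 19.4% with a source well (14 of 72, exact 95% interval 11.06% to 30.5%) and 41.2% without (14 of 34, 24.6% to 59.3%). The part of either measure in the results below was not tested beyond the values given beside them.

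Levels were averaged over the cells of each range in each replicate, and Top2a-high was compared with Top2a-low over these means by limma, with p-values adjusted by Benjamini-Hochberg over 9012 genes. The rise of genes of mitosis, the class to which Top2a itself belongs, was the main difference. A total of 46 genes were higher in Top2a-high cells at an adjusted p under 0.05, which is 0.51% of the genes tested, and 0 were lower, 0% of them. Genes were tested by the share of all 106 otic cells in which they were found, and 66 of these cells were Top2a-high. A gene found only in Top2a-low cells was thus less likely to be tested, which bears on both counts. The 46 became 0 after adjustment for genes found per cell, 2 in cells without a source well and 6 without plate 3. The slope of that adjustment was taken without regard to Top2a, and genes found differed between the ranges. It can therefore also remove part of the Top2a difference. With the slope taken within the Top2a groups, 9 genes were higher. At an unadjusted p under 0.05, 111 genes were lower, and the lowest adjusted p of a lower gene was 0.139. Of the 46, 38 were on the G2/M and mitosis list, 6 on the S phase and DNA replication list, 1 was a histone gene and 1 stood on none of the cell cycle lists. Their differences ran from 2.14 to 4.69 with a median of 3.24. Each of the 46 was above 0 in all 5 plates that could be compared, which their choice from the same cells made likely. All differences are between means of log2(FPKM + 1), a scale that understates the change of genes at low level. The labels do not say whether the replicates were separate litters. The p-values rest on how far group differences varied between the replicates. That spread was shared over the otic groups and the Fabp7-high groups described below. With otic cells alone in the fit, 11 genes were higher.

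**Figure D1:**
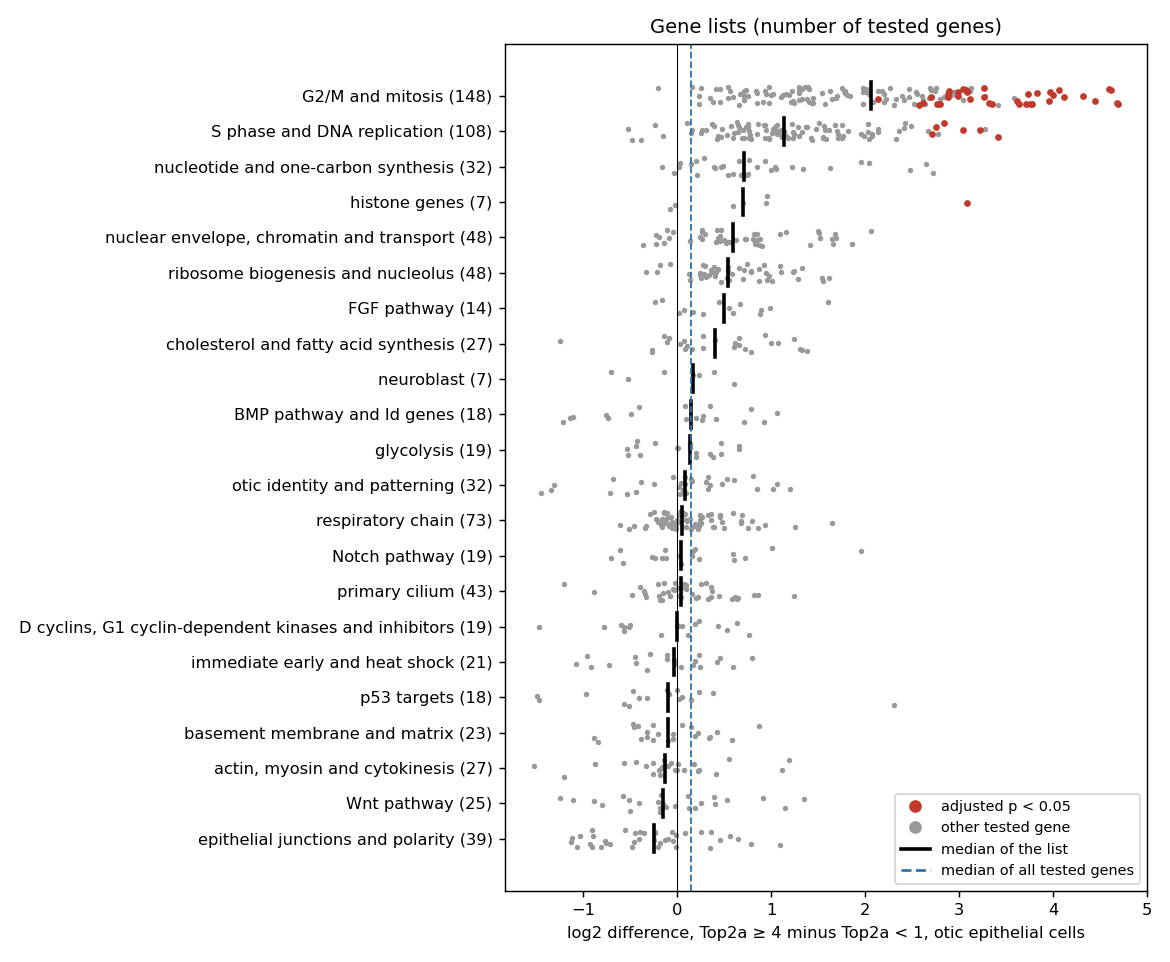
Difference between Top2a-high and Top2a-low otic epithelial cells for each tested gene (dot, log2 scale, horizontal axis), by gene list (vertical axis, number of tested genes in brackets), with the median of each list (black bar) and of all tested genes (dashed line, 0.15). Of the listed genes, those past the threshold (red) lie on the G2/M, S phase and histone lists (Chtf18 is on no list and not drawn), and the medians of the other lists lie between -0.25 and 0.71.

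Most genes that rose were of the G2/M list. Of its 148 tested genes, 38 passed the test, where 0.51% of all tested genes did, and 147 had a difference above 0, where 61.9% of all tested genes had. The median difference was 2.06 against 0.15 over all tested genes. Top2a chose the cells and was not tested, but it is itself on this list. Genes expressed together with Top2a rise by the choice of cells, so these counts describe the split and are not an independent result.

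Cdk1, the kinase that drives entry into mitosis, differed most. It had a mean of 4.90 in the Top2a-high cells of replicate 1 (0 to 7.59, median 5.73, 36 cells) and 5.23 in those of replicate 2 (0 to 7.49, median 5.67, 30 cells). In Top2a-low cells the means were 0.52 (15 cells, highest 4.77) and 0.23 (13 cells, highest 2.72), and the median was 0 in both replicates. Cdk1 was thus found in 60 of 66 Top2a-high and 3 of 28 Top2a-low cells. Cells of these ranges overlapped up to 4.77, the highest Top2a-low level. Some Top2a-high cells that held Cdk1 lay below that level, as did those without it. The difference was 4.69 (SE 0.576, limma adjusted p = 0.00409). The intermediate cells of Cdk1 lay between, with medians of 1.56 and 3.31.

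Ccnb1 encodes cyclin B1, the partner of that kinase. Its medians were 6.67 and 7.11 in Top2a-high cells of the 2 replicates, 4.91 and 3.61 in intermediate cells, and 0.49 and 0 in Top2a-low cells, so the 3 ranges fell in the order of Top2a in each replicate. The Ccnb1 difference was 4.596 (SE 0.567, limma adjusted p = 0.00409).

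Ube2c, the ubiquitin-conjugating enzyme of the anaphase-promoting complex, fell in the same order, with intermediate cells nearer to the Top2a-high cells. Its medians were 6.55 and 7.102 in Top2a-high cells, 6.05 and 5.71 in intermediate cells, and 0 in Top2a-low cells of both replicates. Ube2c was found in all 12 intermediate cells and in 10 of 28 Top2a-low cells, and it differed by 4.68 (SE 0.534, limma adjusted p = 0.00342) between the outer ranges.

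Prc1, which bundles microtubules at the spindle midzone, was found in 56 of 66 Top2a-high cells. It was found in 0 of 15 Top2a-low cells of replicate 1 and 2 of 13 of replicate 2 (difference 4.61, limma adjusted p = 0.00645). Aurkb, the kinase of the chromosomal passenger complex, was found in 51 of 66 Top2a-high cells and listed at 0 in every one of the 28 Top2a-low cells. Only cells of the higher ranges brought Aurkb into the test. Spc25, part of the kinetochore's NDC80 complex, differed by 4.44. Mki67, a textbook marker of cycling cells, was found in 54 of 66 Top2a-high and 5 of 28 Top2a-low cells, yet its difference of 2.61 had a limma adjusted p of 0.102.

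**Figure D2:**
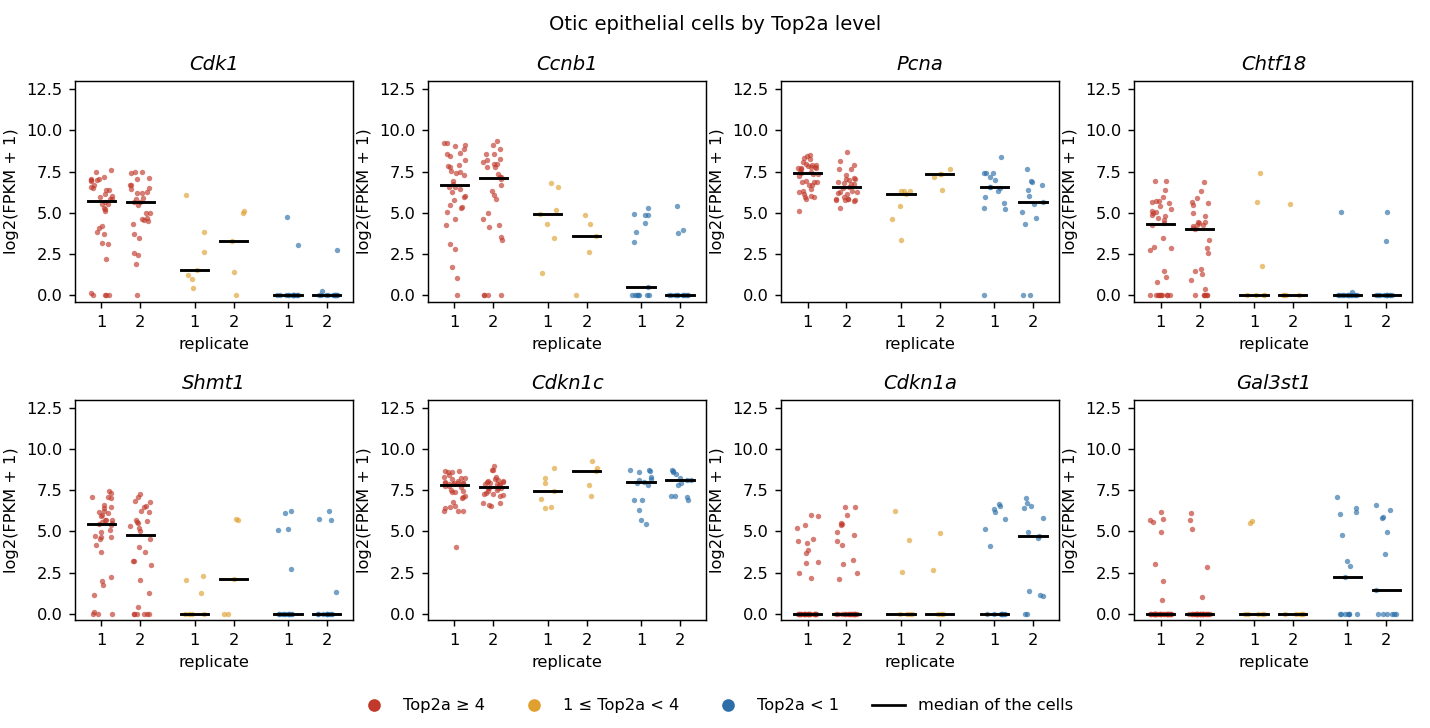
Level of 8 genes in each otic epithelial cell (dot, log2(FPKM + 1), vertical axis) by range of Top2a (colour) and replicate (horizontal axis), with the median of the cells (black bar). Cdk1, Ccnb1 and Chtf18 are near 0 in most Top2a-low cells, Pcna is present in most cells of every range, and Cdkn1c is high throughout.

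Genes of DNA synthesis separated the ranges less. Of 108 tested genes on the S phase list, 103 had a difference above 0 and 6 passed the test (0.51% of all tested genes did), with a median of 1.14. The 6 were Gmnn, Rrm2, Rfc4, Asf1b, Eme1 and Esco2, with differences from 2.71 to 3.41. Rrm2, the regulated subunit of ribonucleotide reductase, had means of 7.73 and 7.44 in Top2a-high cells and 4.36 and 4.38 in Top2a-low cells, and was found in 66 of 66 and 22 of 28 of them (difference 3.22, SE 0.365, limma adjusted p = 0.00342). Gmnn, whose product geminin blocks a second round of replication, was found in 66 of 66 Top2a-high and 15 of 28 Top2a-low cells, at means of 6.87 and 6.49 against 3.98 and 2.56.

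Other replication genes were present in most Top2a-low cells. Pcna, the sliding clamp of DNA polymerase, had medians of 7.39 and 6.55 in Top2a-high cells and 6.54 and 5.67 in Top2a-low cells, where it was found in 25 of 28. Its difference of 1.28 (SE 0.555) did not pass the test (limma adjusted p = 0.699). Mcm6, a subunit of the replicative helicase, was also found in 25 of 28 Top2a-low cells, and its replicate differences had opposite signs, -0.16 and 1.42. Pcna and Mcm6 were found together in 23 of 28 Top2a-low cells and 64 of 66 Top2a-high cells, whereas Cdk1 and Ccnb1 were found together in 1 of 28 and 57 of 66. The low range therefore cannot be called non-cycling from these data: most of its cells held transcripts of the replication machinery, and it is named here by its Top2a level.

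Counted per cell, the same lists gave graded values. A median of 113.5 of the 148 G2/M genes was found per Top2a-high cell, 77.5 per intermediate cell and 48.5 per Top2a-low cell. For the 108 S phase genes the medians were 81, 67.5 and 57.5. The Top2a-low cells spread widely on the S phase list, from 25 to 74 genes, and the Top2a-high cells ran from 52 to 97. These counts move with the number of genes found per cell, which fell from a median of 5127 to 4683 and 4467 over the same ranges.

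**Figure D3:**
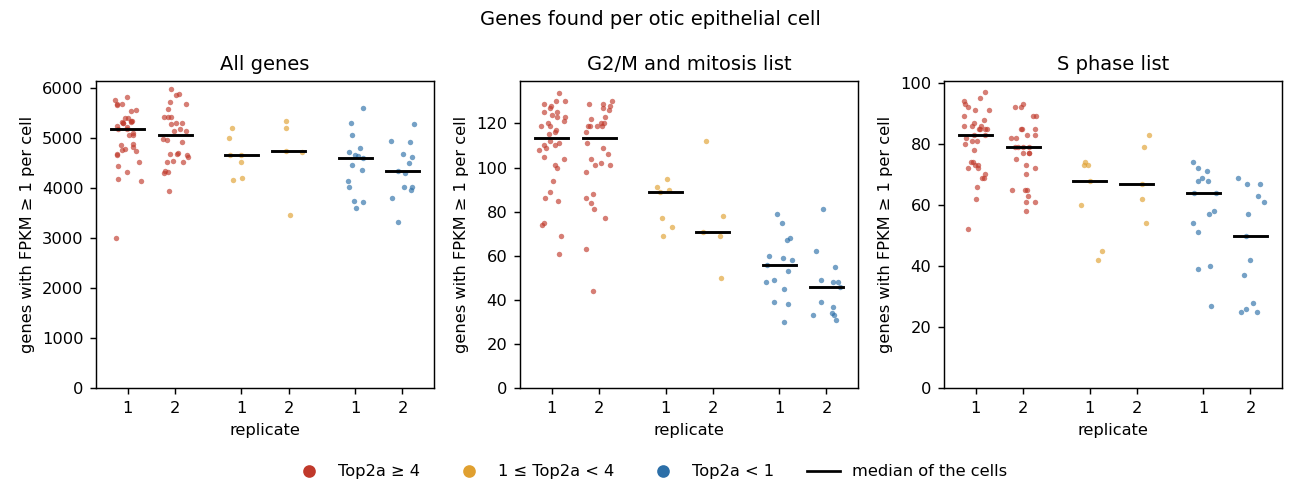
Genes found (FPKM of at least 1) per otic epithelial cell, in number (vertical axis), over all genes and for the G2/M and S phase lists, by range of Top2a (colour) and replicate (horizontal axis), with medians (black bars). The G2/M medians are 113.5, 77.5 and 48.5 from high to low, and the S phase values of Top2a-low cells spread from 25 to 74.

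Regulators of G1 were spread around 0. Of 19 tested D cyclins, G1 kinases and inhibitors 0 passed the test, which with 0.51% of all genes called says little of a list this size, and 10 were above 0 and 9 below, with a median of 0.00 and 1 gene at an unadjusted p under 0.05. Ccnd1 had means of 5.13 and 5.38 in Top2a-high and 4.95 and 4.51 in Top2a-low cells (difference 0.52, SE 0.547; 1.17 without plate 3), and was found in 24 of 28 Top2a-low cells. Ccnd2 differed by -0.57 (SE 0.552) and Ccnd3 by 0.11 (SE 0.464), and Ccnd3 was found in 82.1% of Top2a-low cells. The sign for Ccnd3 changed under 8 of the other settings tried.

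Cdkn1c, the imprinted inhibitor p57, was found in every otic cell of every range. Its medians were 7.81 and 7.72 in Top2a-high cells and 8.02 and 8.13 in Top2a-low cells, with a difference of -0.17 (SE 0.314, limma adjusted p = 0.985), which turned to 0.10 under upper-quartile scaling. Cdkn1a, the p53 target p21, was found in 27 of 66 Top2a-high and 18 of 28 Top2a-low cells, at means of 1.505 and 2.15 against 2.72 and 3.88. Its difference of -1.47 (SE 0.523) was below 0 in all 5 plates but did not pass the test (limma adjusted p = 0.510). Cdkn1b was found in few cells of either range, 9 of 66 and 2 of 28, and its difference was 0.24. Cdkn2d differed by 0.43 (SE 0.573).

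Outside the cell cycle lists, 1 of 8730 tested genes passed the test. That gene was Chtf18 (ENSMUSG00000019214, chromosome 17, 25718926 to 25727419 in GRCm38), a subunit of an alternative clamp loader that works at the replication fork and in sister chromatid cohesion. It was found in 25 of 36 and 22 of 30 Top2a-high cells of the 2 replicates and in 1 of 15 and 2 of 13 Top2a-low cells. Its means of 3.27 and 3.14 against 0.35 and 0.64 gave replicate differences of 2.92 and 2.501, and plate differences from 2.601 to 3.57. The difference of 2.71 (SE 0.545, limma adjusted p = 0.0483) lay just inside the threshold. Chtf18 passed in 9 of 18 other settings, with differences from 1.93 to 4.70. It did not pass without plate 3 (2.85, limma adjusted p = 0.116), in cells without a source well (2.16, limma adjusted p = 0.369) or after adjustment for genes found (1.93, limma adjusted p = 0.712), and by its known role it is a replication gene that the S phase list does not hold.

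The next genes did not pass. Lsm2, a core protein of the U6 spliceosomal particle, was found in 66 of 66 Top2a-high and 18 of 28 Top2a-low cells, with means of 6.43 and 6.33 against 4.48 and 2.98 (difference 2.65, SE 0.546, limma adjusted p = 0.0547). Ppm1g, a nuclear protein phosphatase, had means of 6.202 and 6.17 against 3.97 and 3.54 (difference 2.43, SE 0.514, limma adjusted p = 0.0632). Both Lsm2 and Ppm1g passed in 8 of 18 other settings. Ank, a membrane protein of pyrophosphate export, was found in 21 of 66 Top2a-high and 0 of 28 Top2a-low cells, with a difference of 1.45 (limma adjusted p = 0.0981). Only cells of the higher ranges brought Ank into the test. The transcript 2700099C18Rik differed by 2.08 (limma adjusted p = 0.106). At an unadjusted p under 0.05, 316 genes outside the lists were higher and 110 lower, the larger number in the range where more genes were found per cell. That range also held most of the cells by which genes were chosen for testing.

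Several lists tied to growth had medians above that of all tested genes (0.15), with 0 genes past the test (0.51% of all genes were). Of 32 tested genes of nucleotide and one-carbon synthesis, 30 were above 0, where 61.9% of all tested genes were, and the median was 0.71. Shmt1, the cytosolic enzyme that hands on one-carbon units from serine, had medians of 5.46 and 4.804 in Top2a-high cells and 0 in Top2a-low cells of both replicates, and was found in 55 of 66 and 9 of 28 cells (difference 2.72, SE 0.680, limma adjusted p = 0.149). Mthfd1, the enzyme that interconverts one-carbon folates, differed by 2.65 and Psat1, of serine synthesis, by 2.48. The replicate differences of Psat1 were 1.49 and 3.48, those of Mthfd1 2.58 and 2.72. Shmt1, Mthfd1 and Psat1 were above 0 in all 5 plates.

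Ribosome biogenesis genes were above 0 in 44 of 48 cases, against 61.9% of all tested genes, with a median of 0.55. Wdr74 at 1.62, Rpf2 at 1.55 and the nucleolar helicase Ddx21 at 1.54 led them. Nuclear envelope, chromatin and transport genes were above 0 in 40 of 48, with a median of 0.59 and the nucleoporins Nup43 (2.07), Nup85 (1.86) and Nup93 (1.69) at the top. Cholesterol and fatty acid synthesis genes had a median of 0.40 over 27 genes. Energy metabolism lay nearer to all genes: glycolysis genes had a median of 0.13 over 19 genes and the 73 respiratory chain genes a median of 0.05. No gene of these 6 lists passed the test, and after adjustment for genes found the median of all tested genes was -0.04 in place of 0.15.

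Genes of otic identity and patterning had a median of 0.08. Of 32 tested, 22 were above 0, near the 61.9% of all tested genes, and 0 passed, against 0.51% of all tested genes. The members with the largest differences all had lower means in Top2a-high cells. Dlx5, a homeobox gene of the dorsal vesicle, differed by -1.45 (SE 0.666, limma adjusted p = 0.753), with replicate differences of -2.62 and -0.28, and by -0.17 without plate 3. Lmx1a, also a dorsal gene, differed by -1.34, with medians of 4.32 and 3.39 against 5.11 and 5.19. Fbxo2, an F-box protein abundant in the inner ear, differed by -1.31 and was found in 40 of 66 Top2a-high and 24 of 28 Top2a-low cells. Cells of both ranges spanned nearly the whole span of Dlx5 and Lmx1a, from 0 to above 6.

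Epithelial junction and polarity genes were the list with the lowest median, -0.25. Of its 39 tested genes 30 were below 0, where 3438 of all 9012 tested genes were. That 0 of them passed says little of a list this size, since 0.51% of all tested genes did. The largest were Rab25 at -1.13, Krt19 at -1.12 and, in the other direction, Prom1 at 1.096. Actin and myosin genes had a median of -0.13 over 27 genes, with the small GTPase Rhoc at -1.52, and basement membrane genes a median of -0.10 over 23.

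No gene was lower in Top2a-high cells at the threshold, and those nearest to it were genes found in a minority of cells. Gal3st1, the enzyme that adds sulfate to galactosylceramide, was found in 7 of 36 and 5 of 30 Top2a-high cells and in 8 of 15 and 7 of 13 Top2a-low cells (difference -1.81, SE 0.447, limma adjusted p = 0.139). Without plate 3 the Gal3st1 difference was -0.37 (limma adjusted p = 0.959), and on plate 1 it was 1.05. Gfra3, the receptor subunit for the growth factor artemin, was found in 2 of 66 Top2a-high and 10 of 28 Top2a-low cells (difference -1.74, limma adjusted p = 0.322). Cpz, a secreted carboxypeptidase, differed by -1.69, the transcriptional repressor Prdm1 by -1.27 and the secreted protein Dkk3 by -1.11. Gal3st1 and Gfra3 were each called lower in 4 other settings. These were the settings with wider or other limits on the cycle and the one corrected for transfer between wells, which also drew the cells anew.

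The signalling lists are given by their medians, beside 0.15 over all tested genes. No gene of them passed, as was so of nearly all genes (0.51% were called). The FGF list had a median of 0.50 over 14 genes, with Spred1 at 1.601, Etv5 at 0.99 and Flrt3 at 0.89. The Notch list had a median of 0.04 over 19 genes and its largest difference was Rfng at 1.95 (limma adjusted p = 0.438). For the Wnt list the median was -0.15 over 25 genes, with Sfrp2 at 1.35, Wnt6 at -1.24 and Sfrp1 at 1.15. The BMP and Id list had a median of 0.14 over 18 genes, with Msx2 at -1.22, Acvr1 at -1.14 and Bambi at -1.11. Without plate 3 Msx2 stood at -0.013, Acvr1 at -1.84 and Bambi at 1.04. Primary cilium genes had a median of 0.04 over 43 genes, with Smo at 1.25 and Evc2 at -1.20. Immediate early and heat shock genes had a median of -0.04 over 21, with Nr4a1 at -1.08 and the near-identical pair Hspa1a and Hspa1b at -0.96 and -0.92, whose reads cannot be told apart with certainty. The p53 target list had a median of -0.10 over 18 genes: Perp stood at -1.496, and Gtse1, which is also a G2/M gene, at 2.302 (limma adjusted p = 0.0632). Only 7 of the 18 neuroblast genes were tested, with Hes6 at -0.71, Isl1 at 0.61 and Eya2 at -0.52.

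The same contrast was made in another kind of cell. Cells with Fabp7, a fatty acid binding protein of neural progenitors, at 5 or more and with Epcam under 5, Trp63 under 3 and Neurod1 under 5 numbered 114. Of these, 76 were Top2a-high and 24 Top2a-low, the latter 18 in replicate 1 and 6 in replicate 2. In these Fabp7-high cells 71 genes were higher (0.788% of those tested) and 1 lower (0.0111%). Of the genes that rose, 36 were shared, which is 36 of 46 in otic cells and 36 of 71 in Fabp7-high cells, and all 46 otic genes had a difference above 0 there. Both contrasts split cells by Top2a, so genes expressed together with it rise in both. Genes were tested only if found in enough otic cells, so genes particular to Fabp7-high cells could not be among the 71. A test of whether the Top2a difference itself differed between the cell types called 0 of 9012 genes (0%), with 290 at an unadjusted p under 0.05 and a lowest adjusted p of 0.99997.

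The gene lower in Fabp7-high cells was Cdkn1c, with means of 5.68 and 5.83 in Top2a-high and 6.84 and 7.95 in Top2a-low cells. The mean of 7.95 rests on 6 cells. The difference was -1.64 (limma adjusted p = 0.0267), where otic cells gave -0.17. The difference between these Cdkn1c differences was 1.47 (SE 0.444), with an unadjusted limma p of 0.00551 that was lost on adjustment. For Ccnd3 the differences were 0.11 in otic and 2.08 in Fabp7-high cells, for Cdkn1a -1.47 and 0.21, and neither passed the test of the difference. Chtf18 differed by 2.17 in Fabp7-high cells (limma adjusted p = 0.101) and Shmt1 by 2.43. Gal3st1 was found in 1 of 76 and 0 of 24 Fabp7-high cells, so its otic difference had no counterpart to compare.

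**Figure D4:**
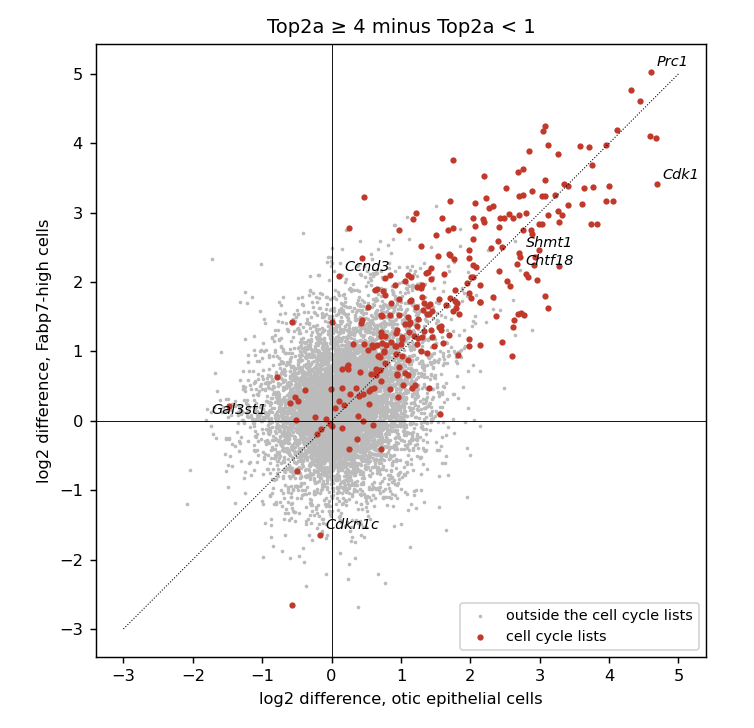
Difference between Top2a-high and Top2a-low cells (log2 scale) of each tested gene in otic epithelial cells (horizontal axis) and in Fabp7-high cells (vertical axis), with cell cycle list genes in red and a dotted line of equal values. Cdk1 and Prc1 lie far from 0 on both axes, while Cdkn1c lies near 0 in otic cells and at -1.64 in Fabp7-high cells.

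The number of genes called depended on the settings more than the direction did. Each of the 46 genes stayed above 0 in all 18 other settings, with a median difference between 2.29 and 5.14. These genes were chosen by their rise in largely the same cells, so a kept sign was likely beforehand and is no independent result. The count fell to 0 when the means were adjusted for genes found per cell, and to 9 when that slope was taken within the Top2a groups. It was 2 in cells without a source well, where each range held 7 to 9 otic cells a replicate, and 128 after a correction for transfer between wells. That correction also changed the levels that choose the cells. The ranges were drawn anew, with 64 Top2a-high and 39 Top2a-low otic cells in place of 66 and 28, so this is not the same comparison. Without plate 3, which left 4 Top2a-low otic cells in replicate 1, the count was 6. The differences of 31 of 75 named genes then moved by over 1.5 times or changed sign, and none of these 31 had passed the test. Outside the cell cycle lists the count of higher genes ran from 0 to 21 and that of lower genes from 0 to 17, so which other genes follow the cycle in these cells was not settled at this number of cells.

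**Figure D5:**
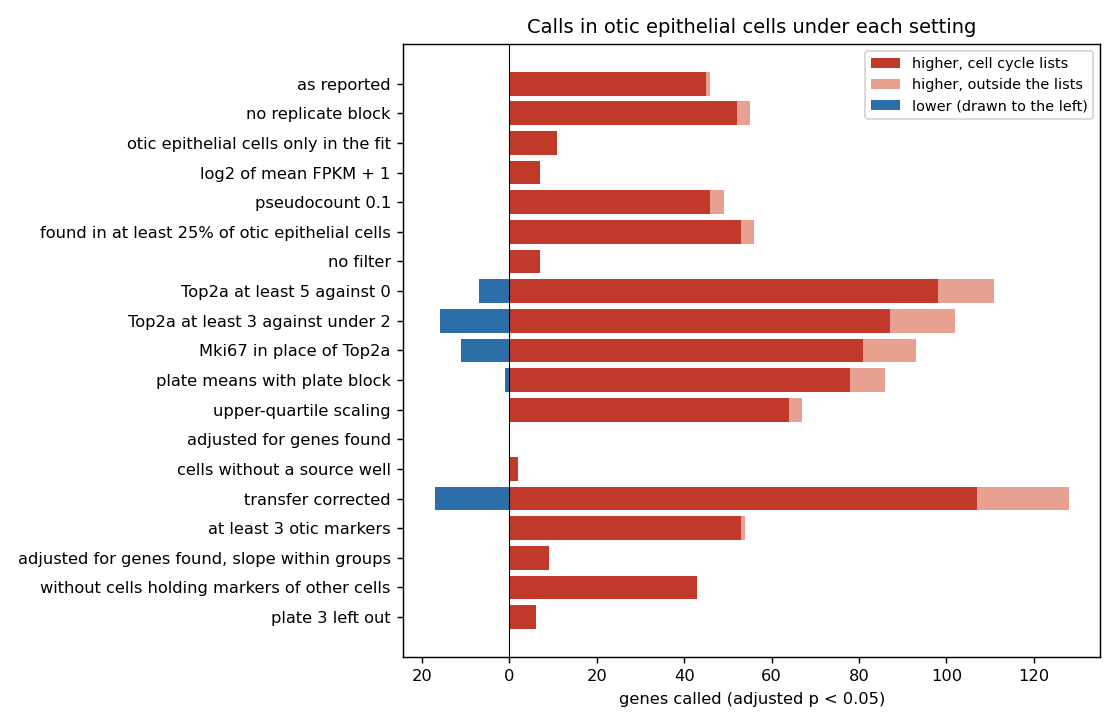
Number of genes called in otic epithelial cells at an adjusted p under 0.05 (horizontal axis; higher with Top2a to the right, lower to the left) in each setting (vertical axis). Cell cycle list genes (dark red) make up most calls in every setting with any, and lower genes (blue) appear in 5 of the 18 other settings.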

How the data were processed

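The authors deposited 1 table of log2(FPKM + 1) values per gene and cell, per the file headers and values. Full-length cDNA was made with a SMARTer kit and libraries with Nextera XT, per the labels' protocols. The build mm10 and the tools TopHat, Cufflinks, Bowtie, Bowtie2, SAMtools, cutadapt and FastQC are named, without versions, per the submitters' processing notes. The table holds no counts, so read depth per cell is unknown, and genes found per cell stands beside the results.

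Of 19659 rows, 132 with a repeated identifier and 33 without a unique symbol were left out. Genes found (FPKM 1 or more) in 10% or more of the otic epithelial cells were tested, without the 6 genes that choose cells. The 10% was taken over cells of all ranges together, most of them Top2a-high, so the filter favoured genes found in Top2a-high cells. Values were averaged over the cells of each group and replicate, since cells are not replicates. Groups with under 5 cells in a replicate (intermediate Fabp7-high cells, 3 in replicate 1) were dropped, which left 10 means. For the setting without plate 3 this minimum was lowered to 4. Replicate 1 then held 4 Top2a-low otic cells, all on plate 1. limma 3.58.1 in R 4.3.3 fitted group with replicate as a block (empirical Bayes with trend, 4 residual degrees of freedom). The fit was also run on simulated data with known changes, and no outcome of that run is given or used here. No doublet caller was run. No depth correction was made unless stated.

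Named genes were the genes called outside the cell cycle lists with the same sign in both replicates and in the 5 plates compared, the 5 largest rises of the cell cycle lists, the 3 largest differences of each other list, the D cyclins and inhibitors, and, where fewer than 5 were called in a direction, those of lowest p up to 5. Aurkb, Rrm2, Gmnn and the other S phase genes that rose, Pcna, Mcm6 and Mki67 were named beside them after their values were seen. The cell rule, members and lists were chosen with earlier results of these data known. Alternatives changed the pseudocount, the filter, the limits on Top2a, the scaling, the block, the cells and the treatment of transfer between wells. The transfer correction came before the choice of cells, so it drew the otic cells and their ranges anew. Promoter windows came from RefSeq, GRCm38.p6, and gene coordinates from GENCODE M21.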

Additional observations from a re-analysis of the deposited data

Results flagged for a closer look

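Differences between Top2a-high and Top2a-low otic epithelial cells were also taken within each of the 5 plates that held both, and in 7 of 78 sets of plate values 1 plate stood apart from the other 4. Chance alone flags about 1 in 20 of independent sets, but these 78 shared the same cells and plates, so the shares cannot be compared directly. Ube2c differed by 2.15 on plate 1, where the other plates ran from 5.21 to 6.402, and all 5 were above 0. Cdkn1a differed by -3.75 on plate 4 and by -0.75 to -1.59 on the others. Spred1, an inhibitor of the FGF response, stood at -1.85 on plate 1 and at 1.34 to 2.597 on the others. Ndufs5, of respiratory complex I, stood at -0.20 on plate 1. Nup85, a nucleoporin, stood at 4.02 on plate 5 and at 1.08 to 1.47 on the others. Ccnd1 differed by -1.63 on plate 3, which held 11 of the 28 Top2a-low cells, and by 0.91 to 1.22 on the other plates. Cdkn2d stood at -1.33 on plate 1 and at 0.34 to 0.56 on the others. Each plate held 3 to 11 Top2a-low cells, and the cause of these values was not tested.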

How the results depend on the processing

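Each of the 46 genes, chosen by their rise in largely the same cells, kept its direction in the 18 other settings, while the counts moved. Higher genes numbered 11 with otic cells alone in the fit, 7 with the log of the mean FPKM, 7 without a filter, 2 in cells without a source well, 9 with adjustment for genes found by a slope within groups and 6 without plate 3, and 0 lay outside the cell cycle lists in each of these; after plain adjustment for genes found both counts were 0. Fewer cells or replicate means bear on the counts for cells without a source well, for plate 3 and for otic cells alone; other causes were not tested. Higher genes numbered 111 (13 outside the lists) with Top2a of at least 5 against 0, 102 (15) with at least 3 against under 2, 93 (12) with Mki67 in place of Top2a, 86 (8) with plate means and 128 (21) after correction for transfer, and lower genes 7, 16, 11, 1 and 17 in turn, all outside the lists. Without the replicate block 55 were higher, 3 of them outside the lists; 3 lay outside the lists also with a pseudocount of 0.1, with a filter at 25% of cells and with upper-quartile scaling, and 0 without cells holding markers of other cells. Upper-quartile scaling moved the median of all tested genes from 0.15 to 0.27. The test between cell types called 0 genes in every setting that gave it. Without either replicate there are no residual degrees of freedom, so no count can be given; the slope within groups, the removal of marker-holding cells and that of plate 3 were chosen after seeing the data.

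Among the genes named in the text, those whose sign changed passed in no setting. Without plate 3, Numb stood at -0.17, Bambi at 1.04, Sparc at 0.32, Bbs5 at 0.13, Slc2a3 at 0.52, Ccnd3 at -0.27 and Cdkn2d at -0.22. In cells without a source well, Flrt3 stood at -0.62, Bbs5 at 0.14, Slc16a3 at -0.35, Hes6 at 0.76, Cdkn1b at -0.10 and Cdkn2d at -0.77. With Mki67, Etv5 stood at -0.28, Slc2a1 at -0.086, Slc2a3 at 0.013 and Eya2 at 0.018. With the log of the mean FPKM, Slc2a1 stood at -0.048 and Ccnd3 at -0.40. Ccnd3 stood at -0.089 with Top2a at least 3 against under 2, at -0.0094 with plate means, at -0.69 and -0.88 with the plain and within-group adjustment for genes found, at -0.24 after transfer correction and at -0.12 with at least 3 otic markers. Cdkn1c stood at 0.10 under upper-quartile scaling. FPKM without counts leaves the depth of each cell unknown, and 28 Top2a-low cells limit what could be detected.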
